A study of Homo sapiens with 3 samples.

Results

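The 42 genes described here are nuclear genes for subunits of the oxidative phosphorylation system, 42 of the 52992 genes summed in the series. They were chosen by symbol as respiratory chain subunits. The rule uses no measured values, but the list was drawn up with earlier results of these data known. All 42 were found and passed the filter on low counts. By complex they comprise 18 genes of complex I, 4 of complex II, 6 of complex III, 11 of complex IV and 3 of complex V. The RNA came from TE5, an established line of esophageal squamous carcinoma cells, in 2 libraries of cells given short hairpin RNA against the transcription factor KLF5 (shKLF5) and 1 library of cells transfected with a scramble control, all harvested after 48 h. The labels give the same line and medium for both groups. They number the shKLF5 libraries 1 and 2 but do not say whether these differ in hairpin or in culture. The error behind each p-value thus joins the spread of 2 libraries, possibly technical only, with a spread estimated over all genes. The lone scramble library is taken to vary to the same extent.

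Oxidative phosphorylation takes electrons from NADH at complex I and from succinate at complex II, passes them through ubiquinone, complex III and cytochrome c to oxygen at complex IV, and uses the resulting proton gradient to make ATP at complex V. Complex II is encoded wholly in the nucleus, whereas complexes I, III, IV and V combine nuclear subunits with a few encoded in mitochondrial DNA, so their assembly draws on both genomes. The nuclear genes are expressed in nearly all tissues and are classically linked to the transcription factors NRF1, GABP of the ETS family, YY1 and the Sp factors. KLF5 is a zinc finger factor of proliferating epithelia, which binds GC-rich and CACCC-type elements.

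The libraries held 33544752 and 32720563 estimated counts for shKLF5 libraries 1 and 2, against 33448976 for scramble. KLF5 itself had 1333 and 1531 counts in the shKLF5 libraries, against 8402 in scramble, with a log2 fold change of -2.96 (SE 0.34). TP63 had 4939 and 2047 counts against 8380, and SOX2 had 7876 and 2185 against 5899, both lower in library 2 than in library 1. Transcripts of mitochondrial DNA took 26.9% and 30.9% of counts as mRNA in the shKLF5 libraries, against 31.4% in scramble. Squamous markers such as KRT5 and TP63 were present in every library, with a summed level of 1267 and 682 TPM (transcript abundance per length, scaled to a fixed total per library) over 8 markers in shKLF5 libraries 1 and 2, against 3742 TPM in scramble. Most of that sum was KRT5, with 514 and 188 TPM against 2110 TPM, and KRT6A, with 248 and 208 TPM against 1011 TPM. KRT14, also of the 8, was low in the shKLF5 libraries, with 37 and 10 counts against 659. Markers of other cell types were low: 6 fibroblast markers summed to 26.3 and 15.4 TPM against 16.7 TPM, 7 leukocyte markers to 5.93 and 6.69 TPM against 2.63 TPM, and endothelial and glandular markers to at most 1.36 TPM. Most of the fibroblast sum was COL1A1, with 21.4 and 14.05 TPM against 13.0 TPM. COL3A1 had 435 and 48 counts against 484, COL1A2 had 18 and 15 against 1, and the others had at most 39 in any library. Most of the leukocyte sum was NKG7 and ITGAM, with 69 and 77 counts against 43 and with 72 and 108 against 8, and PTPRC had 24 and 11 against 8. The glandular marker MUC2 was at 0 in every library. The part of squamous and other cell type genes in the values below was not tested.

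The 42 genes were abundant. Their median level was 98.0 TPM in shKLF5 library 1 and 66.2 TPM in library 2, against 86.5 TPM in scramble, and 27 of them were among the 1000 protein-coding genes with the highest mean TPM. Summed over all 42, the level was 6481 and 4904 TPM in shKLF5 libraries 1 and 2, against 5406 TPM in scramble. As a share of the counts on nuclear genes, the sum was 0.645% and 0.555% against 0.646%. Library 1 thus lay above scramble on the TPM scale and level with it as a share of nuclear counts, and library 2 lay below scramble on both.

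**Figure D1:**
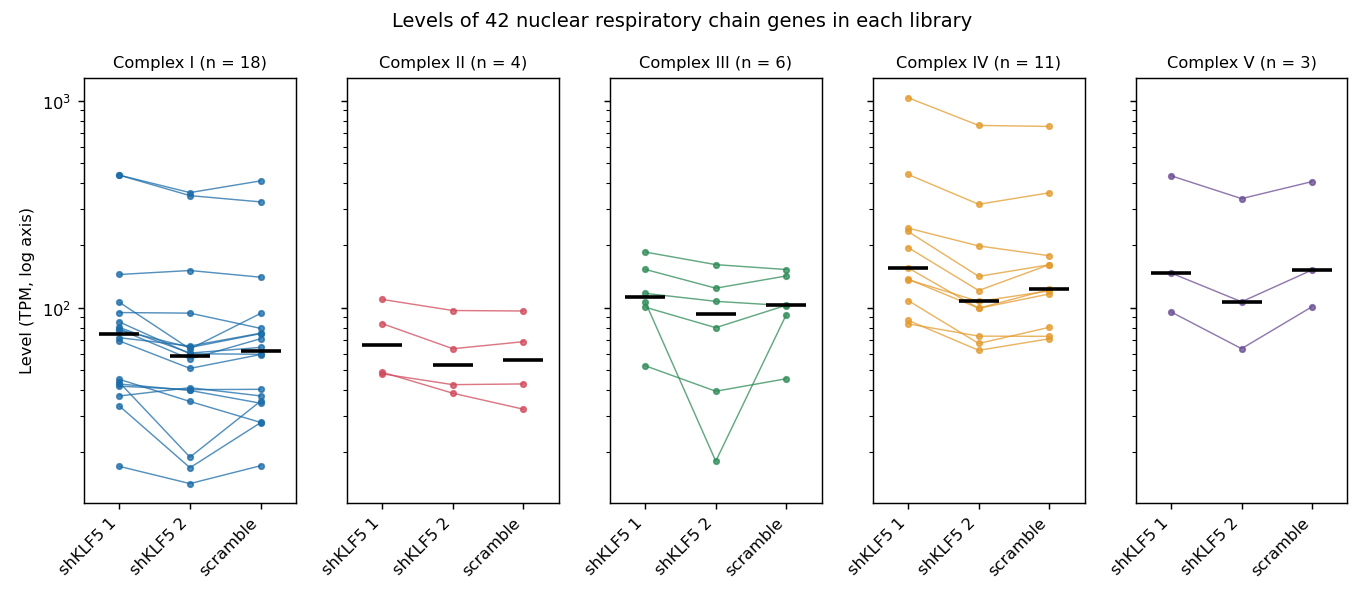
Level of each of the 42 genes (TPM, log axis) in shKLF5 library 1, shKLF5 library 2 and scramble, in 1 panel per complex. Each thin line joins the values of 1 gene and black bars are the panel medians; over all 42 genes the median was 98.0, 66.2 and 86.5 TPM, and the steep line in complex III is UQCRB.

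After scaling by TMM (edgeR's trimmed mean of M values, which aligns the bulk of genes between libraries), most of the genes were lower by value in the shKLF5 libraries, a direction that held for 21 of the 42 with library size alone and 17 of 42 on the log2(TPM + 1) scale. The fitted log2 fold change was below 0 for 40 of the 42 genes, against 47.8% of all 20629 genes tested, with a median of -0.43, against 0.04 for all genes. Both shKLF5 libraries were below scramble for 39 of the 42 genes, against 36.5% of all genes, and none of the 42 was above scramble in both, against 37.9% of all genes. The other 3 genes, NDUFA2, SDHC and COX8A, were above scramble in library 1 and below it in library 2. Library 1 alone was below scramble for 39 of the 42, against 50.2% of genes, and library 2 for all 42, against 48.3%. In TPM, which carries no such scaling, 36 of the 42 were higher than scramble in library 1, against 83.4% of genes, and 14 of 42 were higher in library 2, against 70.3% of genes. In TPM 13 were higher in both, against 65% of genes, and 5 were lower in both, against 11.3%. Library size alone moved the median of all genes to 0.47, and 41 of the 42 lay below that median, as with TMM. A change of scaling factors shifts genes nearly alike, so this agreement is no separate check.

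None of the 42 differences passed the test. With edgeR's quasi-likelihood test and Benjamini-Hochberg adjustment over 20629 genes, 0 of the 42 had an adjusted p under 0.05, as had 0% of all genes, and the adjusted p ran from 0.550 to 0.994. At an unadjusted p under 0.05 the count was also 0 of 42, against 9.18% of all genes (3.5% lower and 5.68% higher). DESeq2 called 116 genes (0.681%), none of them among the 42. The standard error of a log2 fold change ran from 0.34 to 0.71.

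Abundant genes were lower in general after TMM scaling, and this stands beside the median of the 42. In the most abundant of 10 equal bins of the genes tested, which holds 16 of the 42, the median log2 fold change of all genes was -0.29, against -0.41 for the 16. In the next bin, with 13 of the 42, it was -0.17 for all genes and -0.42 for the 13. Of all genes with a mean of at least 5 CPM (counts scaled to library size), 50.8% were below scramble in both shKLF5 libraries. In the most abundant bin it was 63.4% of genes and in the next 53.1%, against 36.5% of all genes tested. With the trend against abundance removed by loess, a setting added after the data were seen, the median of the 42 was -0.16.

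**Figure D2:**
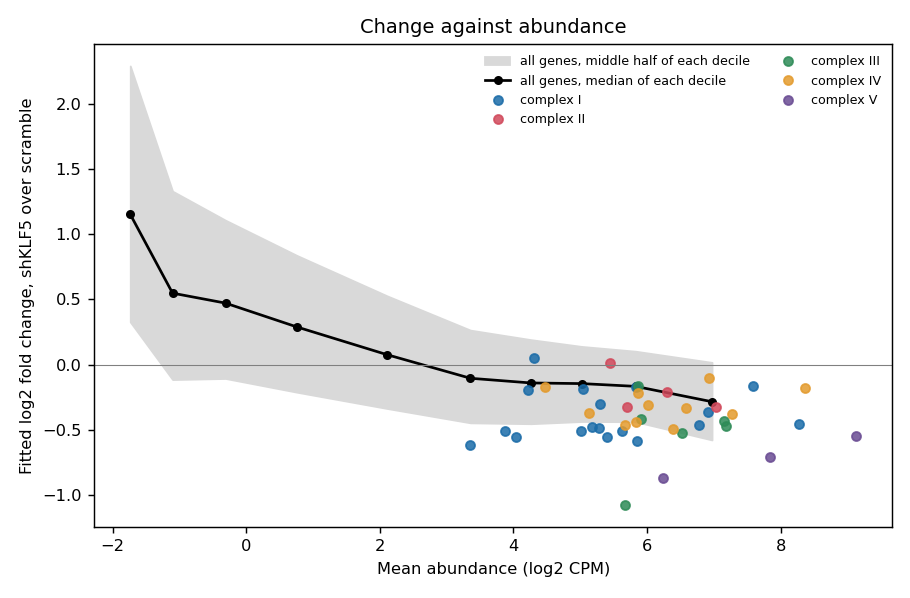
Fitted log2 fold change of shKLF5 over scramble (TMM scaling) against mean abundance (log2 CPM) for the 42 genes, coloured by complex, over the median (black) and interquartile range (grey) of all genes in 10 bins of abundance. The black line is at 1.15 in the least abundant bin and at -0.29 in the most abundant, and most coloured points lie under it.

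The 2 shKLF5 libraries also differed from each other, a comparison that does not use the scramble library. After TMM scaling 39 of the 42 genes were lower in library 2 than in library 1, against 49.7% of all genes, with a median difference of -0.28 on the log2 scale, against 0.00 for all genes. In TPM it was 40 of 42, against 55.7% of genes. The exceptions after TMM scaling were NDUFS1, NDUFS8 and NDUFV1, all core subunits of complex I that bind iron-sulfur clusters. Set against scramble, the 42 genes had a median of -0.24 in library 1 and -0.58 in library 2, while KLF5 was about equally low in both. With 1 library on each side this difference has no replicate check and no test.

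**Figure D3:**
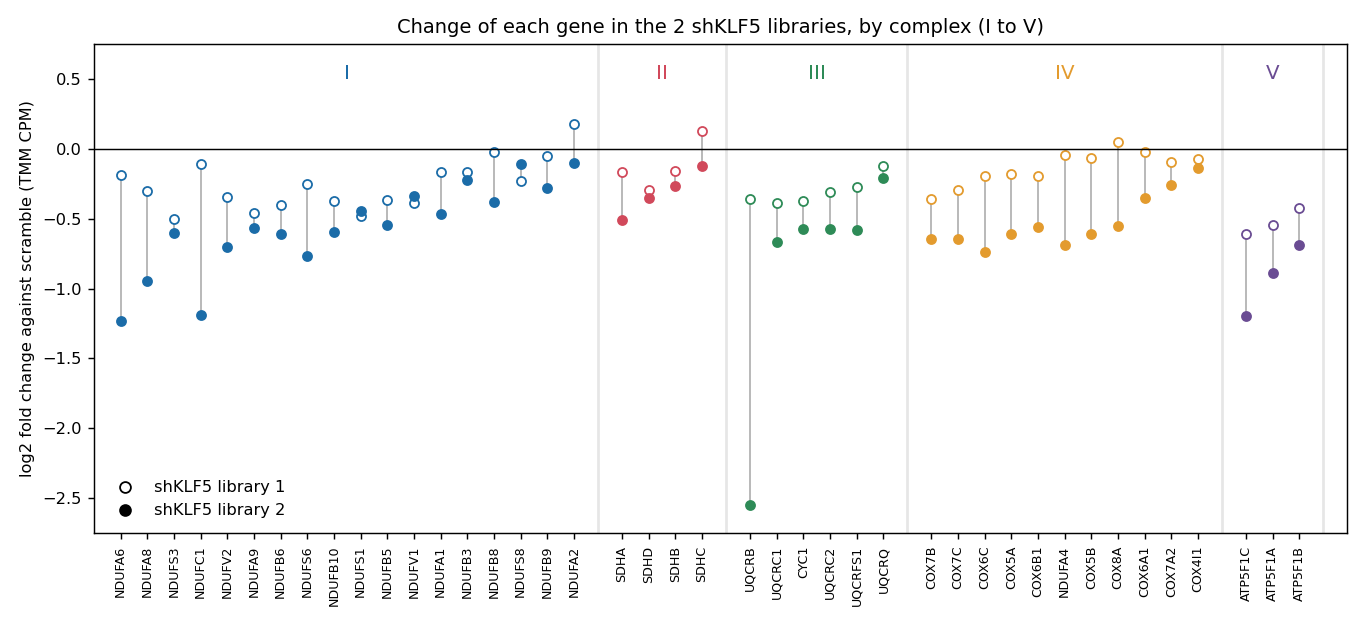
Log2 fold change against scramble (TMM-scaled CPM) of each of the 42 genes in shKLF5 library 1 (open circles) and library 2 (filled circles), grouped by complex and ordered by the fitted change. Filled circles lie below open ones for 39 genes, and UQCRB in library 2 stands at -2.55.

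Complex I, the NADH dehydrogenase, had a median log2 fold change of -0.47 over the 18 genes listed here. It was -0.28 in library 1 and -0.55 in library 2. Of the 18, 17 were lower in both shKLF5 libraries and NDUFA2 was not. Of 19 further nuclear genes of complex I from a fixed list, 13 were lower in both libraries. Their median was -0.20, with -0.19 in library 1 and -0.25 in library 2. The most abundant of the 18 were the accessory membrane arm subunits NDUFB5 and NDUFB9. NDUFB5 (ENSG00000136521; GRCh38 chromosome 3, 179604690 to 179627647) had 437 and 360 TPM in shKLF5 libraries 1 and 2, against 410 TPM in scramble, and a log2 fold change of -0.45 (SE 0.34). NDUFB9 (ENSG00000147684; chromosome 8, 124539101 to 124580648) had 437 and 348 TPM against 325 TPM, and a log2 fold change of -0.16 (SE 0.35). For both, scramble lay within the range of the shKLF5 libraries or below it in TPM, while the TMM-scaled values were lower.

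NDUFV1, the subunit that holds the flavin and binds NADH, had 145 and 151 TPM against 140 TPM in scramble, with little between the shKLF5 libraries and a log2 fold change of -0.36 (SE 0.34). NDUFA6, an accessory subunit of the matrix arm, had 43.5 and 18.9 TPM against 35.3 TPM. Its log2 fold change of -0.62 (SE 0.53, 95% interval -1.84 to 0.60) was the lowest of the 18. It rests on library 2, with -0.19 in library 1 and -1.23 in library 2. NDUFC1, a small membrane subunit, had the same pattern, with 691 and 316 counts against 553 in scramble. NDUFA2, a small matrix arm subunit, had the highest log2 fold change of the 18, at 0.05 (SE 0.40) on the TMM scale. It had 45.03 and 35.2 TPM against 27.9 TPM, above scramble in both libraries in TPM. The 13 others ranged from 14.1 to 106 TPM, and their fitted log2 fold changes from -0.59 (NDUFA8) to -0.17 (NDUFS8).

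Complex II, succinate dehydrogenase, had the median nearest to scramble after TMM scaling, a difference from the other complexes that was not tested. This rank depends on scaling. With library size alone or on the log2(TPM + 1) scale, complex II stood above scramble and farther from it than complexes I, III and IV. Its 4 genes had a median log2 fold change of -0.27, with -0.16 in library 1 and -0.31 in library 2. SDHB, the iron-sulfur subunit, was the most abundant, with 110 and 96.9 TPM in shKLF5 libraries 1 and 2, against 96.4 TPM in scramble, and stood at -0.21 (SE 0.35). SDHC, a membrane anchor, had 48.8 and 38.6 TPM against 32.3 TPM, above scramble in both libraries in TPM, and stood at 0.01 (SE 0.37) after TMM scaling. SDHD, the other anchor, had 47.9 and 42.4 TPM against 42.8 TPM, and stood at -0.32 (SE 0.35). In all 4 genes, SDHA included, the shKLF5 libraries differed from each other by less than the standard error, which draws on all genes.

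SDHA (ENSG00000073578; GRCh38 chromosome 5, 218241 to 256700), the flavin subunit that oxidises succinate, had 83.7 and 63.3 TPM against 68.5 TPM as a gene sum, and a log2 fold change of -0.33 (SE 0.36). In library 1 its main coding and intron-retaining transcripts lay above scramble by count alike, and in library 2 they split. The main coding transcript SDHA-201 had 2434 and 844 counts in shKLF5 libraries 1 and 2, against 2052 in scramble, and the coding SDHA-204 had 198 and 14 against 196. By count the main transcripts annotated as retaining introns were above scramble in both shKLF5 libraries, SDHA-206 with 1375 and 1808 counts against 1169, and SDHA-203 with 491 and 616 against 357. Such counts carry no TMM scaling, which lowers the shKLF5 values against scramble. Coding transcripts held 54.8% and 24.5% of the SDHA counts in shKLF5 libraries 1 and 2, against 56.8% in scramble. With coding transcripts alone the fitted log2 fold change of SDHA was -0.68. SDHA has 3 named pseudogenes of near-identical sequence, SDHAP1, SDHAP2 and SDHAP3, which together had 1540 and 2023 counts against 1205, so the division of reads among SDHA transcripts and copies is uncertain.

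Complex III, the cytochrome bc1 complex, had a median log2 fold change of -0.45, with -0.33 in library 1 and -0.58 in library 2, and all 6 genes were lower in both after TMM scaling. UQCRQ, a small subunit of the ubiquinone-binding part, was the most abundant of the 6, with 186 and 161 TPM against 153 TPM in scramble. It also stood nearest to scramble of the 6, at -0.17 (SE 0.35). CYC1, which encodes cytochrome c1, had 153 and 124 TPM against 142 TPM, and stood at -0.47 (SE 0.34). UQCRC2, a core subunit, had 117 and 107 TPM against 102 TPM, and stood at -0.43 (SE 0.35). The others, the core subunit UQCRC1 and the Rieske iron-sulfur protein UQCRFS1, stood at -0.52 and -0.42.

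UQCRB (ENSG00000156467; GRCh38 chromosome 8, 96225920 to 96235634), the ubiquinone-binding subunit, was set apart by library 2 alone. It had 2175 and 461 counts, or 107 and 18.1 TPM, in shKLF5 libraries 1 and 2, against 2072 counts and 92.7 TPM in scramble. Library 1 was close to scramble and library 2 was far below both. The log2 fold change was -0.36 in library 1 and -2.55 in library 2, and the fitted value of -1.08 (SE 0.71, 95% interval -2.73 to 0.57) was the lowest of the 42 with the widest error. Its spliced transcripts carried most of the gap. UQCRB-203, annotated for nonsense-mediated decay, had 994 and 109 counts against 987, and the coding UQCRB-204 had 608 and 63 against 464. Coding transcripts held 39.4% and 36.8% of the UQCRB counts in shKLF5 libraries 1 and 2, against 35.2% in scramble. The intron-retaining UQCRB-208 had 157 and 74 counts against 158, and UQCRB-206 had 114 and 66 against 137. Without UQCRB the median of complex III was -0.43 and that of the other 41 genes -0.42.

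**Figure D4:**
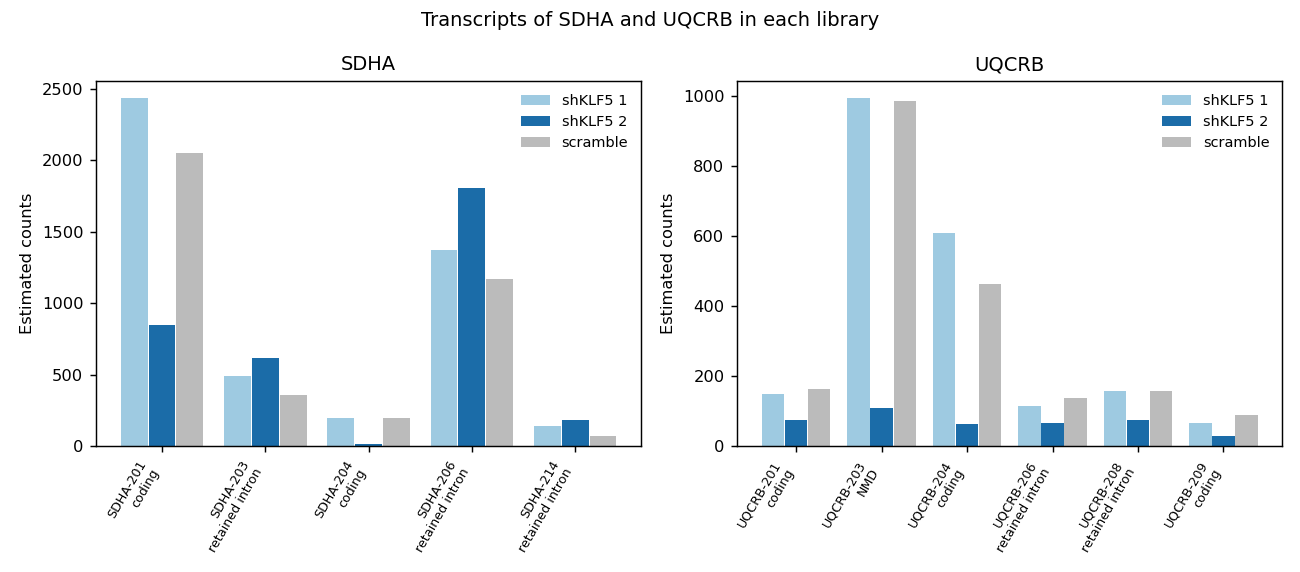
Estimated counts of the transcripts of SDHA (left) and UQCRB (right) with at least 80 counts in some library, as bars for shKLF5 library 1, shKLF5 library 2 and scramble. Library totals differ by little, and the counts carry no TMM scaling. SDHA-201 is low in library 2 (844 counts) where SDHA-206 is high (1808), whereas each UQCRB transcript shown is low in library 2.

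Retained introns were counted over all members too. Transcripts annotated as retaining introns held 7.09% and 9.60% of the counts of the 42 genes in shKLF5 libraries 1 and 2, against 7.44% in scramble. In all other nuclear protein-coding genes they held 6.60% and 8.24%, against 6.37%. The higher share in library 2 was thus present across genes, and its part in the SDHA values was not tested. For COX7A2 a transcript annotated for nonsense-mediated decay, COX7A2-204, had 388 and 324 counts against 194, without TMM scaling. Of its coding transcripts COX7A2-205 had 81 and 79 against 150, whereas the more abundant COX7A2-208 had 211 and 180 against 171.

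Complex IV, cytochrome c oxidase, had a median difference of -0.36 between shKLF5 library 2 and library 1, against -0.18 to -0.35 in the other complexes. Its 11 genes had a median log2 fold change of -0.33, with -0.10 in library 1 and -0.61 in library 2, and all 11 were lower in library 2 than in library 1. NDUFA4, first described in complex I and now placed in complex IV, is counted here. COX6A1, the ubiquitous form of subunit VIa, was the most abundant of the 42, with 1035 and 760 TPM against 752 TPM in scramble, and stood at -0.18 (SE 0.36). COX5A, a matrix-side subunit, had 440 and 316 TPM against 359 TPM, and stood at -0.38 (SE 0.36). COX4I1, the ubiquitous subunit IV, had 242 and 199 TPM against 178 TPM, and stood highest of the complex at -0.10 (SE 0.34). COX7B, a small membrane subunit, stood lowest at -0.50 (SE 0.35), with 137 and 107 TPM against 121 TPM. In TPM all 11 genes were higher than scramble in library 1 and 8 of the 11 were lower in library 2.

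The 7 other complex IV genes ranged from 62.2 to 233 TPM, and from -0.46 (COX7C) to -0.18 (COX7A2) in fitted log2 fold change. COX8A, the smallest subunit, crossed scramble, with 233 and 142 TPM against 161 TPM, and log2 fold changes of 0.05 in library 1 and -0.55 in library 2. NDUFA4 had 108 and 67.1 TPM against 80.4 TPM, in TPM also above scramble in library 1 and below it in library 2. The tissue-restricted forms of these subunits were nearly absent: COX4I2, COX6A2, COX7A1, COX7B2 and COX8C had at most 2 counts in any library. Exceptions were COX6B2, a form of COX6B1 best known from testis, with 332 and 204 counts against 514 and a log2 fold change of -1.35 (SE 0.45, edgeR adjusted p = 0.474), and NDUFA4L2, a hypoxia-inducible relative of NDUFA4, with 714 and 655 counts against 770 and a log2 fold change of -0.58 (SE 0.38).

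Complex V, the ATP synthase, had the lowest median of the complexes, a difference that was not tested, with a log2 fold change of -0.71 over its 3 genes, all subunits of the catalytic head. The median was -0.54 in library 1 and -0.89 in library 2. ATP5F1C (ENSG00000165629; GRCh38 chromosome 10, 7788129 to 7807815), the gamma subunit that forms the rotating stalk, had 2547 and 1642 counts in shKLF5 libraries 1 and 2, against 2878 in scramble, or 95.4 and 63.4 TPM against 101 TPM. It was lower than scramble in both libraries on every scale used, and its log2 fold change of -0.87 (SE 0.38, 95% interval -1.76 to 0.01) had the lowest p of the 42, with an edgeR adjusted p of 0.550 and a range over the alternatives from 0.502 to 0.971. ATP5F1A, the alpha subunit, had 147 and 107 TPM against 152 TPM, likewise lower in both, and stood at -0.71 (SE 0.35, edgeR adjusted p = 0.581). ATP5F1B, the catalytic beta subunit, had 434 and 337 TPM against 407 TPM, above scramble in library 1 in TPM, and stood at -0.55 (SE 0.36).

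Within ATP5F1A the balance of transcripts differed from scramble in both shKLF5 libraries, which also differed from each other. It was not tested. The counts of its transcripts carry no TMM scaling, which lowers the shKLF5 values against scramble. By count ATP5F1A-202 had 4217 and 2614 in the shKLF5 libraries, against 5666 in scramble, while ATP5F1A-201, also coding, had 3146 and 2817 against 2394. ATP5F1A-202 thus took 55.6% and 45.2% of the ATP5F1A counts, against 69.1%. These transcripts are of nearly equal length (1916 and 1945 bases) and their counts are estimates, so the division of reads between them is uncertain. Of 15 further nuclear genes of complex V from a fixed list, 13 were lower in both libraries, and the median was -0.27. ATP5PB, of the peripheral stalk, stood at -0.93 (SE 0.45) and ATP5MC3, of the rotor ring, at -0.80 (SE 0.37), neither with an unadjusted p under 0.05 by edgeR's test.

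The subunits encoded in mitochondrial DNA showed the opposite order of the shKLF5 libraries. Their 13 mRNAs had a median log2 fold change of -0.58, with -0.62 in library 1 and -0.43 in library 2, and 12 of 13 were higher in library 2 than in library 1, where 39 of the 42 nuclear genes were lower. MT-CO1, the catalytic subunit of complex IV, had 2162320 and 2097070 counts against 2602070, nearly level between the shKLF5 libraries after scaling, and a log2 fold change of -0.70 (SE 0.62). MT-CYB, the cytochrome b of complex III, had 622027 and 837531 counts against 697735, and stood at -0.34 (SE 0.54). MT-ATP6, of the proton channel of complex V, stood at -0.62 (SE 0.57), and MT-ND3, of complex I, at 0.02 (SE 0.42), the highest of the 13. None of the 13 had an unadjusted p under 0.05 by edgeR's test.

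By count of genes, several other mitochondrial groups had the same order of the shKLF5 libraries as the 42. Library 2 was lower than library 1 for 29 of 38 other nuclear subunit genes, 18 of 21 genes of the citric acid cycle and pyruvate entry, and 6 of 7 carriers and porins, against 49.7% of all genes. Of 21 genes of the cycle and of pyruvate entry, both libraries were lower for 19, and the median was -0.61, or -0.40 in library 1 and -0.90 in library 2. PC, pyruvate carboxylase, stood at -1.14 (SE 0.42), PDHB, of pyruvate dehydrogenase, at -1.003 (SE 0.40) and IDH3A, of isocitrate dehydrogenase, at -0.83 (SE 0.34). These and SUCLG2 had unadjusted p under 0.05 by edgeR's test, 4 of 21 genes lower against 3.5% of all genes, and none had an adjusted p under 0.05. The 38 other nuclear subunit genes, cytochrome c among them, had a median of -0.27, or -0.20 in library 1 and -0.36 in library 2. Both libraries were lower for 29 of the 38, and 0 had an unadjusted p under 0.05. Carriers and porins had medians of -0.47 in library 1 and -0.44 in library 2, which do not follow the order of their counts. Of them VDAC3, an outer membrane channel, stood at -1.01 (SE 0.34) and SLC25A5, an ADP/ATP carrier, at -0.85 (SE 0.35). The other ADP/ATP carriers listed, SLC25A4 and SLC25A6, stood at -0.08 (SE 0.38) and -0.19 (SE 0.34).

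In further groups the order of the shKLF5 libraries was mixed, with library 2 lower for 43 of 76 mitochondrial ribosomal protein genes, 25 of 52 assembly factors and 7 of 14 nuclear regulators. Of the 76 ribosomal protein genes 61 were lower than scramble in both, the medians being -0.31 in library 1 and -0.33 in library 2. Of 52 assembly factors 35 were lower in both, the medians being -0.28 and -0.18, and TMEM70, an assembly factor of complex V, had 569 and 571 counts against 890 and a log2 fold change of -1.05 (SE 0.38). Import and chaperone genes had medians of -0.43 in both libraries. Genes for the expression of mitochondrial DNA had a median of -0.13, with TFB1M, a methyltransferase of mitochondrial rRNA, at 1.08 (SE 0.47) and TFAM, which packages mitochondrial DNA, at -0.64 (SE 0.37). Of 14 nuclear regulators 11 were lower in both, and PPARGC1B, a coactivator of mitochondrial biogenesis, had 1105 and 591 counts against 1171 and stood at -0.88 (SE 0.44).

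**Figure D5:**
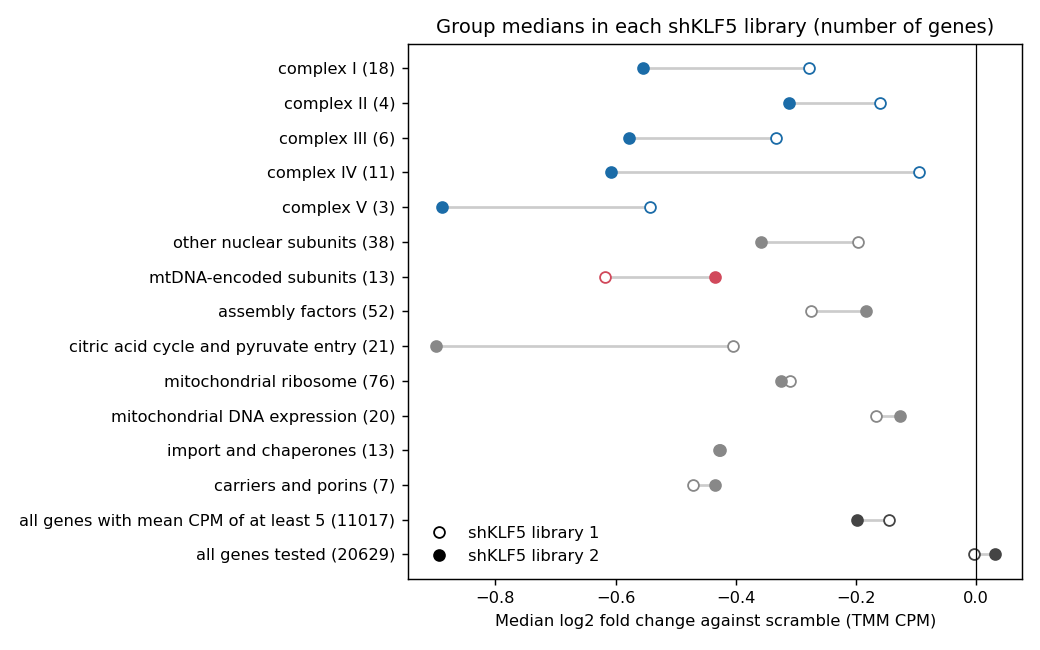
Median log2 fold change against scramble (TMM-scaled CPM) in shKLF5 library 1 (open circles) and library 2 (filled circles) for complexes I to V, other mitochondrial gene groups and all genes, with the number of genes in brackets. For the 5 complexes the filled circle lies left of the open one, and for the subunits encoded in mitochondrial DNA it lies right, at -0.43 against -0.62.

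Promoters are shown for the lowest of the 42 genes in each complex by fitted change, or UQCRC1 as the next lowest in complex III. They let the motifs the nuclear genes share be read beside the values. They are RefSeq sequences on GRCh38.p14 from 170 bases before to 30 after the start of the gene in RefSeq, 5′ to 3′ on the gene's strand, and capitals mark motif matches. Motifs were searched on both strands. The NRF1 motif was GCGC, any base and TGCGC, the ETS motif was CCGGAAG, the YY1 motif was ATGGCG, the GC box was GGGCGG and the CACCC box was CCACCC. The stretches are chr22:42090743-42090942 on the minus strand for NDUFA6, chr5:218150-218349 on the plus strand for SDHA, chr3:48609617-48609816 on the minus strand for UQCRC1, chrX:77899298-77899497 on the plus strand for COX7B and chr10:7788007-7788206 on the plus strand for ATP5F1C. The RefSeq start differs from the outer bound of the gene in GENCODE: it is 218320 for SDHA, 7788177 for ATP5F1C and 48609646 for UQCRC1.
NDUFA6: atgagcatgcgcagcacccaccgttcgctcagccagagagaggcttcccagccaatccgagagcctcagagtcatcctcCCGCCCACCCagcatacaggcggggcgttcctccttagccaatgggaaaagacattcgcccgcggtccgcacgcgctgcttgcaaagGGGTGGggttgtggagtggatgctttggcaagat
SDHA: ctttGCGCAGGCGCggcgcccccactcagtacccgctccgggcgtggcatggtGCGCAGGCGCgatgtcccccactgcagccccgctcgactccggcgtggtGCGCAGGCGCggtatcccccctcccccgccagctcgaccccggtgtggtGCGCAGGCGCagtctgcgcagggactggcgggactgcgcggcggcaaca
UQCRC1: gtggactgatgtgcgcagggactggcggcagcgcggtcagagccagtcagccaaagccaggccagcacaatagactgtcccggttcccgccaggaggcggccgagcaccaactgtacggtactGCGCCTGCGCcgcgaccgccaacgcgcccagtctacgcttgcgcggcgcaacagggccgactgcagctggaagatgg
COX7B: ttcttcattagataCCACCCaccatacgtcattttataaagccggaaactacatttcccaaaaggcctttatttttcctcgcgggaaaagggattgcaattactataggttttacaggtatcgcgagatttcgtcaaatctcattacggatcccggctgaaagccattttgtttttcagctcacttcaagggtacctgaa
ATP5F1C: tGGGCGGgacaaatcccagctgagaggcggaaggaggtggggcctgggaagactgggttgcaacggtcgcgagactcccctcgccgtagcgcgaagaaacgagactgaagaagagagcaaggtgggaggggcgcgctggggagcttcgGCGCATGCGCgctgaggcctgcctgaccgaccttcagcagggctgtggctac

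The SDHA promoter held 4 NRF1 matches, which begin 166, 117, 68 and 19 bases before the RefSeq start. Those at 68 and 19 bases lie within the SDHA gene as GENCODE bounds it. UQCRC1 held 1 NRF1 match from -47 and ATP5F1C 1 from -22, beside a GC box from -169. NDUFA6 held a GC box from -91 that overlaps a CACCC box from -87, and another CACCC box from -4. COX7B held only a CACCC box, from -156, in the stretch printed.

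Promoters of 34 of the 42 genes were matched in RefSeq, and ATP5F1B, COX6C, CYC1, NDUFA4, NDUFB5, NDUFB9, SDHC and UQCRB were not. In the window from 250 bases before to 50 after the start, the NRF1 motif was found in 7 of the 34 (20.6%), against 5.78% of all 35116 promoters of that length. The ETS motif was found in 11 (32.4%, against 10.3%), the YY1 motif in 14 (41.2%, against 10.7%) and the GC box in 23 (67.6%, against 44.95%). The CACCC box was found in 9 (26.5%, against 34.3%). By complex, the ETS motif was in 5 of 9 matched promoters of complex IV and 3 of 16 of complex I, and the YY1 motif in 8 of 16 of complex I and 1 of 9 of complex IV. These matches describe the letters in the window and are not binding sites.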

How the data were processed

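RNA-seq of 3 TE5 libraries was quantified with kallisto, per the submitters' processing notes, which also name hg19 and DESeq2. The authors deposited estimated counts per transcript and TPM, per the file headers. Here 181857 of 196354 transcripts (92.6%) were matched to GENCODE on GRCh38, whose coordinates are printed, and both units were summed per gene. The unmatched transcripts held 3.05% to 3.42% of counts. Rounded sums were tested with edgeR 4.0.16 (R 4.3.3; filterByExpr, TMM factors of 1.11 and 1.10 for shKLF5 and 0.82 for scramble, quasi-likelihood F test, Benjamini-Hochberg adjustment, threshold 0.05). The fit had 1 residual degree of freedom, beside 6.86 prior degrees of freedom drawn from all genes. Values per library are log2 ratios with a prior count of 2 and no test. Intervals are 95% intervals of the fit. The test was checked on simulated data. The members and lists were chosen with earlier results of these data known. Values were given in full for the 3 most abundant members of each complex and those with the lowest and highest fold change, and in other lists for up to 4 genes of lowest p, except the subunits of mitochondrial DNA and the tissue-restricted isoforms. NDUFC1, NDUFA4, COX8A, SLC25A4, SLC25A6 and the transcripts named were chosen after their values were seen. DESeq2 1.42.0 and limma 3.58.1 were alternatives. Of the 42 genes, 27 have named pseudogenes and 21 an overlapping gene on the opposite strand, with which reads may be shared.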

Additional observations from a re-analysis of the deposited data

How the results depend on the processing

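Scaling set the direction against scramble for many of the 42 genes, though not for all. Only SDHA, UQCRB, COX7A2, ATP5F1A and ATP5F1C were followed through every setting. Of them UQCRB, ATP5F1A and ATP5F1C were below 0 throughout, and SDHA and COX7A2 were not. Further genes may keep their direction too, since 21 of the 42 were below 0 with library size alone. With library size alone the median log2 fold change was 0.0026 for the 42 genes and 0.47 for all genes, and -0.043, 0.16, -0.024, 0.096 and -0.28 for complexes I to V. With limma on log2(TPM + 1) the medians were 0.055 and 0.26, and 0.010, 0.092, -0.021, 0.085 and -0.28 by complex, with the 42 at -0.21 relative to all genes. With a pseudocount of 0.1 they were 0.055 and 0.43, and 0.010, 0.092, -0.021, 0.085 and -0.28. With nuclear library size alone, added after the data were seen, they were -0.12 and 0.35, and -0.16, 0.043, -0.14 and -0.40 for complexes I, II, III and V. With the abundance trend removed, also added later, they were -0.16 and -0.0022, a difference of -0.15, and -0.28, -0.035, -0.22 and -0.37 for complexes I, II, III and V. Relative to all genes, NDUFB9 was then at 0.15, NDUFS8 at 0.0089, SDHC at 0.17, UQCRQ at 0.012, COX4I1 at 0.15 and COX6A1 at 0.20. With a mean CPM of at least 5, complexes II and III were at -0.090 and -0.28, SDHC at 0.17 and COX4I1 at 0.055. On log2(TPM + 1) SDHC was at 0.15 and COX4I1 at 0.034. With coding transcripts alone complex II was at -0.16 and SDHC at 0.084. With no filter the median of all genes was 0.33, the 42 lay at -0.80 relative to it and NDUFA2 at -0.32. Without mitochondrial DNA genes the median of all genes was 0.064 and 2 genes were called, against 21 with edgeR's legacy fit and 116 with DESeq2, none among the 42. An unadjusted p under 0.05 was reached by 1 of the 42 with median-ratio factors and 1 with the legacy fit. Leaving out each shKLF5 library gave medians of -0.58 to -0.24 for the 42, -0.0031 to 0.031 for all genes and -0.31 to -0.16 for complex II, and relative values of -0.13 to 0.18 for NDUFA2, -0.15 to 0.13 for SDHC and -0.58 to 0.054 for COX8A, with no test. The cause of these differences was not tested. Across the settings 35 to 42 of the 42 lay below the median of all genes, with 35 when the abundance trend was removed. No paired analysis was possible because there is 1 scramble library for 2 shKLF5 libraries. With 1 scramble library, its own deviation enters every comparison with it.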
